A study of Mus musculus with 10 samples.

Results

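The enzymes described here are those known to convert aristolochic acid into its DNA-binding form, together with the cytochromes and the sulfotransferase that act on it or on its product. They were chosen by name and role. No measured value enters the rule, but earlier results of these data were known when it was set. The members are the 4 nitroreductases *Nqo1*, *Por*, *Xdh* and *Cyb5r3*, the demethylating cytochromes *Cyp1a1* and *Cyp1a2*, and the sulfotransferase *Sult1a1*. Of these 7 genes, 6 were listed among the 21792 genes of the processed files, and *Cyp1a2* was not listed, so it has no value here. The study sequenced RNA of the renal cortex of 10 wild-type (WT) mice at day 28, to learn which genes differ in a model of kidney fibrosis. The 4 sham mice received PBS, and the 6 mice with aristolochic acid nephropathy (AAN) received aristolochic acid at 5 mg/kg in PBS as 1 intraperitoneal injection, so the values come from 28 days after the only dose. The labels give neither sex nor age, and the methods give male sex, the C57BL/6 strain and an age of 8 weeks for the AAN model. Each mouse was sequenced separately and is named by its tag.

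Aristolochic acid is a plant nitroaromatic acid that damages the proximal tubule. Reduction of its nitro group yields an N-hydroxyaristolactam, which loses its hydroxyl group to give a nitrenium ion that binds purine bases of DNA. NQO1 in the cytosol is the best known of the reductases, POR and the CYP1A enzymes can do the same in the endoplasmic reticulum, and the CYP1A enzymes also remove a methyl group from the acid, which leads to excretion. Sulfotransferases can conjugate the hydroxylamine, and organic anion transporters of the proximal tubule carry the acid into the cell.

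The promoters of the 3 members that were lower in AAN are shown first, since 2 well-studied regulators of such enzymes read known letters in DNA. The aryl hydrocarbon receptor (AhR) with its partner ARNT binds GCGTG, and NRF2 binds the antioxidant element, searched here as TGACNNNGC. TATAAA was searched as the TATA box, and every motif was sought on both strands. The windows run from 250 bases before to 50 bases after the RefSeq transcription start in GRCm38.p6, 5′ to 3′ on the gene's strand, and capitals mark the matches.
Cyp1a1 (chr9:57697363-57697662, plus strand): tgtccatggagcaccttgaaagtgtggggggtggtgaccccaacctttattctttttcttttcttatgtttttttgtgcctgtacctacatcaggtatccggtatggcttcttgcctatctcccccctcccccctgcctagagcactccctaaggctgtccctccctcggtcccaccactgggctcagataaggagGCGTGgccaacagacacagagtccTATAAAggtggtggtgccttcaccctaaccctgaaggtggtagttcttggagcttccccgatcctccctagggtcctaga
Nqo1 (chr8:107403156-107403455, minus strand): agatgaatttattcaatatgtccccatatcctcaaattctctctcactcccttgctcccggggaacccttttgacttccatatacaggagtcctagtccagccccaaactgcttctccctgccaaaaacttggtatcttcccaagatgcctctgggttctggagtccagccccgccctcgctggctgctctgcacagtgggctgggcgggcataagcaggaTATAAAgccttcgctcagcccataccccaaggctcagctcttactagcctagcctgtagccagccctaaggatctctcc
Por (chr5:135688895-135689194, plus strand): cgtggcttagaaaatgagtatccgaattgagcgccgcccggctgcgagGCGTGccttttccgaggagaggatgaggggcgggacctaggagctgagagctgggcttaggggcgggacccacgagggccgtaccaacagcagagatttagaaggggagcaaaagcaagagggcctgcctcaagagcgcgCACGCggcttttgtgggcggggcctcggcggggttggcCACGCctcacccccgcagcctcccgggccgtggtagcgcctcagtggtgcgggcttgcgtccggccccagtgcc
The *Cyp1a1* window holds GCGTG 54 bases before the start and TATAAA 30 bases before it. The *Nqo1* window holds TATAAA 29 bases before the start. The *Por* window holds GCGTG 202 bases before the start and again 62 and 24 bases before it on the other strand, where it reads CACGC. No matches overlapped, and TGACNNNGC was in none of the 3 windows, nor in those of *Sult1a1* and *Cyp1a2*. Bases further upstream were not searched, so sites there are not described. The windows of *Cyp1a1* and *Por* lie inside the gene spans given below, and annotated starts further upstream were not searched. Over 32817 promoter windows of the same length, GCGTG was in 32.4%, TGACNNNGC in 12.4% and TATAAA in 13.6%. The motifs were chosen with the sequences in view and describe letters alone. The table of promoters had no entry for *Xdh* and *Cyb5r3*.

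The deposited values are FPKM, fragments per kilobase of gene model per M fragments, and the depth recovered from them was 15.8 to 17.5 M fragments in the sham mice and 13.4 to 16.5 M in the AAN mice. Of 17129 genes tested with limma on log2(FPKM + 0.1), 6126 were higher and 588 lower in AAN at an adjusted p of at most 0.05 and at least 2-fold, so 91.2% of the calls were higher. The median log2 fold change of all genes tested was 0.75. After rescaling by the median of ratios it was 0.05, with 63.8% of the calls higher, and after quantile normalization it was -0.13, with 50.9% of the calls higher. Mitochondrial genes held 39.5% to 61.4% of the summed FPKM in the sham mice and 21.4% to 55.0% in the AAN mice. The changes of the 6 enzymes are therefore given as deposited and also relative to the median of all genes, and those of other genes as deposited. A gene is said to have risen or fallen where its adjusted p was at most 0.05, and the 2-fold limit is named where it matters.

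Of 12 proximal tubule markers, *Slc34a1* had 1231 to 2754 FPKM in the sham mice, and the whole list summed to 22270 to 36799 FPKM. In AAN, 11 of the 12 fell, against 6.00% of all genes, and the sum was 1414 to 3981 FPKM. Most of the sum in the sham mice was 1 gene, *Kap*, with 16685 to 33359 FPKM. *Kap* had 303 to 2204 FPKM in the AAN mice, so the sums mainly follow this gene. The median log2 fold change of the 12 markers was -1.78. The AAN mouse B614 stood nearest to the sham mice, with a mean log2 value over the 12 markers of 7.09, where the other AAN mice had 5.36 to 5.70 and the sham mice 7.51 to 8.21. Its values are marked, and each enzyme is also given without it. Of 8 leukocyte and 8 macrophage markers all rose, against 55.4% of all genes. Their sums were 16.6 to 30.7 and 134 to 196 FPKM in the sham mice. In the AAN mice the sums were 257 to 864 and 3222 to 9746 FPKM. No marker of these 3 lists was at 0 in every sham mouse. Their part in the results below was not tested, and in whole tissue fewer cells of a type and less RNA per cell cannot be told apart.

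Among the 6 listed enzymes, *Nqo1*, *Por* and *Cyp1a1* fell, *Xdh* and *Sult1a1* rose, and *Cyb5r3* did not pass the test. The background was 6.00% of all genes lower and 55.4% higher by the adjusted p alone. With the 2-fold limit added, *Por* and *Cyp1a1* were lower and *Xdh* higher, against 3.43% and 35.8% of all genes (39.2% in either direction). The groups did not overlap for 3 of the 6 enzymes, against 43.6% of all genes. The median log2 fold change of the 6 was -0.22, beside 0.75 for all genes.

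*Nqo1* (ENSMUSG00000003849, chr8:107388225-107403206 on the minus strand of GRCm38, 1 annotated transcript of 1553 bases) encodes the NAD(P)H quinone dehydrogenase of the cytosol. Its level was 34.6, 31.4, 30.8 and 37.4 FPKM in sham mice B607, B634, B636 and H249, and in the 6 AAN mice the lowest was 12.5, the median 17.8 and the highest 29.6 FPKM. The groups did not overlap, and the highest AAN mouse, B614, lay just under the lowest sham mouse. Groups that do not overlap with AAN lower were found for 3.25% of all genes. The means were 33.6 ± 3.07 FPKM (SD, n = 4) in sham and 18.8 ± 6.21 FPKM (SD, n = 6) in AAN, and the log2 fold change was -0.88 (SE 0.22, limma adjusted p = 0.00496), 1.85-fold lower and so short of the 2-fold limit. Relative to the median of all genes the log2 change was -1.63. Without B614 it was -1.03, past the limit, and it was also past it after the median of ratios (-1.65) and quantile normalization (-1.25).

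*Por* (ENSMUSG00000005514, chr5:135670033-135735326, plus strand, 9 annotated transcripts) encodes the cytochrome P450 oxidoreductase, which passes electrons from NADPH to the microsomal cytochromes. Its level was 59.1, 24.0, 32.4 and 51.0 FPKM in sham mice B607, B634, B636 and H249, and 11.03, 16.5 and 40.4 FPKM at the lowest, median and highest of the AAN mice. The groups overlapped through B614, whose level exceeded those of 2 sham mice, while the other 5 AAN mice lay under every sham mouse. The means were 41.6 ± 16.2 FPKM (SD, n = 4) and 20.1 ± 10.6 FPKM (SD, n = 6), with a log2 fold change of -1.09 (SE 0.35, limma adjusted p = 0.0185), and of -1.84 relative to the median of all genes. The call leaned on single mice: the adjusted p was 0.0581 without sham mouse B607 (-0.89) and 0.0573 without sham mouse H249 (-0.96), and without AAN mouse B630 the change was under 2-fold (-0.95, adjusted p = 0.0348). Without B614 it was -1.32 (adjusted p = 0.00199).

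*Xdh* (ENSMUSG00000024066, chr17:73883895-73950196, minus strand, 14 annotated transcripts) encodes xanthine oxidoreductase, the enzyme that makes urate and can also reduce nitro groups. Its level was 4.96, 1.99, 2.87 and 3.46 FPKM in sham mice B607, B634, B636 and H249, and 8.55, 16.6 and 24.0 FPKM at the lowest, median and highest of the AAN mice. Every AAN mouse was above every sham mouse, a pattern found for 40.3% of all genes. The means were 3.32 ± 1.25 FPKM (SD, n = 4) and 16.7 ± 4.97 FPKM (SD, n = 6), a 4.94-fold rise with a log2 fold change of 2.30 (SE 0.29, limma adjusted p = 3.8e-05). *Xdh* kept its call under all 19 alternatives, with log2 fold changes of 1.56 to 2.52 (2.29 without B614), and relative to the median of all genes it was higher by 1.56. B614, which stood near the sham mice in *Nqo1*, *Por* and the proximal tubule markers, had 16.6 FPKM of *Xdh*, in the middle of the AAN mice.

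*Cyb5r3* (ENSMUSG00000018042, chr15:83153494-83172592, minus strand, 3 annotated transcripts) encodes NADH-cytochrome b5 reductase, which feeds electrons to cytochrome b5. Its level was 54.3, 27.4, 34.0 and 40.3 FPKM in sham mice B607, B634, B636 and H249, and 38.8, 50.9 and 63.6 FPKM at the lowest, median and highest of the AAN mice. The groups overlapped, since B607 lay within the AAN range. The means were 39.0 ± 11.5 FPKM (SD, n = 4) and 51.9 ± 8.46 FPKM (SD, n = 6), and the log2 fold change of 0.44 (SE 0.21, 95% interval -0.01 to 0.89, limma adjusted p = 0.0817) did not pass. It was 0.61 without B607 (adjusted p = 0.0172) and 0.52 without AAN mouse B630 (adjusted p = 0.0446), against 0.45 without B614 (adjusted p = 0.0864), but -0.32 after the median of ratios (adjusted p = 0.077), so its direction depended on the scaling. Relative to the median of all genes the log2 change was -0.31 as deposited and -0.37 after the median of ratios, but 0.34 after quantile normalization.

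*Cyp1a1* (ENSMUSG00000032315, chr9:57687928-57703824, plus strand, 2 annotated transcripts) encodes the AhR-induced cytochrome that acts on aristolochic acid both as a reductase and as a demethylase. Its level was low, with 0.436, 1.20, 0.997 and 0.857 FPKM in sham mice B607, B634, B636 and H249, and 0.140, 0.264 and 0.559 FPKM at the lowest, median and highest of the AAN mice. On the shorter transcript these levels correspond to 20, 50, 43 and 37 fragments in the sham mice and to 6 to 23 fragments in the AAN mice. Each value thus rests on few fragments, fewest in the AAN mice. The part of counting error in the spread between mice was not computed. The groups overlapped in sham mouse B607, which was below AAN mouse B614. The means were 0.874 ± 0.325 FPKM (SD, n = 4) and 0.301 ± 0.144 FPKM (SD, n = 6), and the log2 fold change was -1.28 (SE 0.32, limma adjusted p = 0.00452), or -2.03 relative to the median of all genes. At this level the pseudocount shrinks the change, which was -0.52 with a pseudocount of 1 and -1.54 with 0.01. Without B614 it was -1.44. The neighbouring *Cyp1a2* lies on the opposite strand at chr9:57676937-57683703.

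*Sult1a1* (ENSMUSG00000030711, chr7:126672865-126676432, minus strand, 3 annotated transcripts) encodes a phenol sulfotransferase of the cytosol. Its level was 2.65, 3.18, 2.80 and 3.35 FPKM in sham mice B607, B634, B636 and H249, and 4.25, 6.15 and 7.64 FPKM at the lowest, median and highest of the AAN mice. The groups did not overlap, and the lowest AAN mouse was again B614. The means were 2.996 ± 0.325 FPKM (SD, n = 4) and 6.07 ± 1.17 FPKM (SD, n = 6), a 1.97-fold difference with a log2 fold change of 0.98 (SE 0.18, limma adjusted p = 0.000572), just short of the 2-fold limit and 1.07 without B614. Relative to the median of all genes the change was 0.23, and it was 0.23 after the median of ratios (adjusted p = 0.34) and 0.16 after quantile normalization (adjusted p = 0.533). The span of *Sult1a1* shares 61 bases with that of *Sgf29*, which rose less (log2 fold change 0.55, SE 0.20, adjusted p = 0.0343), and whether strand was used in counting is not stated.

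**Figure D1:**
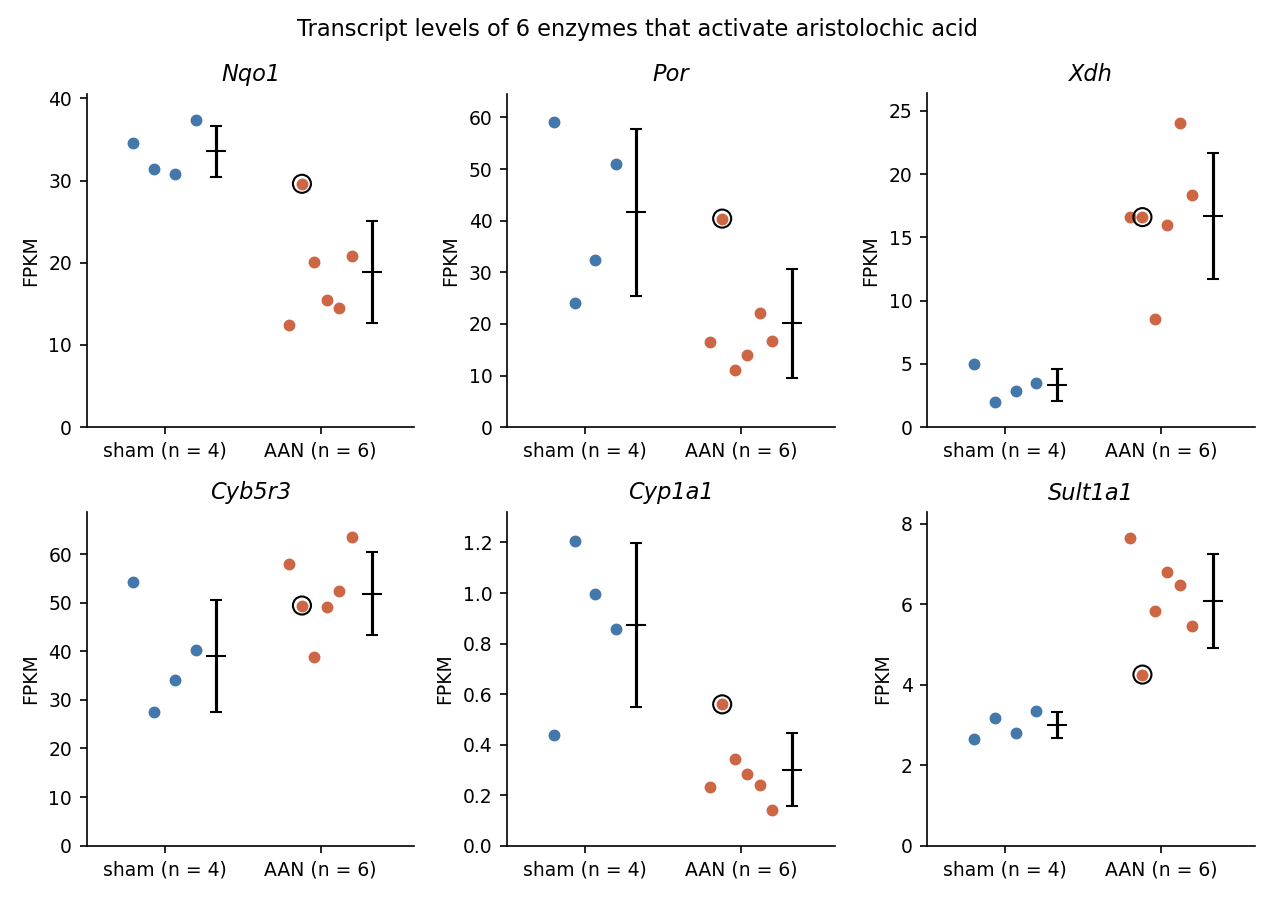
FPKM (y axes, each from 0) of the 6 listed enzymes in the 4 sham and 6 AAN mice, 1 point a mouse, with the mean and SD at the right of each group and AAN mouse B614 ringed. The AAN mice lie under all sham mice for Nqo1 and above them for Xdh and Sult1a1, and B614 is the AAN mouse nearest to the sham mice for Nqo1, Por, Cyp1a1 and Sult1a1.

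**Figure D2:**
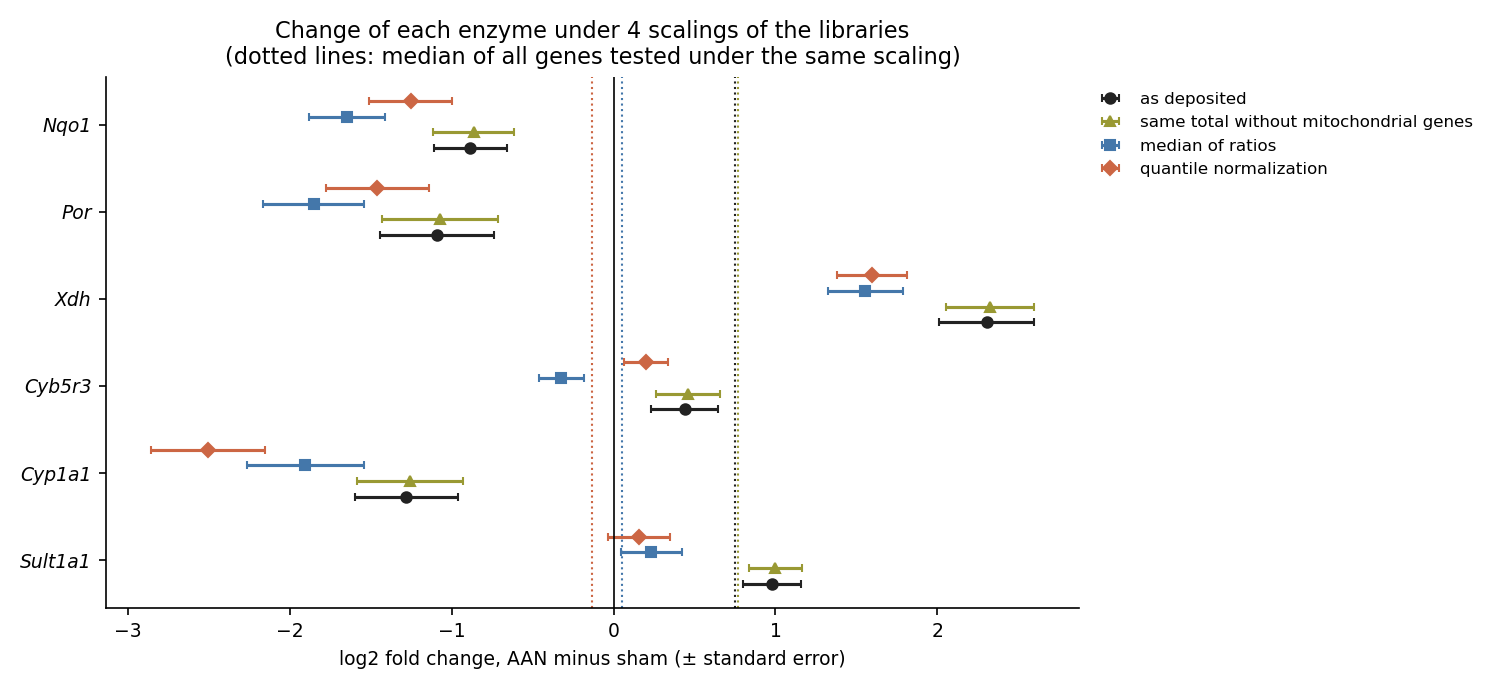
Log2 fold change of each enzyme (x axis, AAN minus sham, bars are standard errors) under 4 scalings of the libraries, with the median of all genes under each scaling as a dotted line. Nqo1, Por and Cyp1a1 stay under 0 and Xdh stays above 1.5 in all 4, Cyb5r3 crosses 0 after the median of ratios (-0.32), and Sult1a1 drops from 0.98 to 0.23 and 0.16.

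Since FPKM is per length, levels could also be ordered between the enzymes. In the sham mice *Por*, *Cyb5r3* and *Nqo1* were the most abundant by mean FPKM and close to each other, with *Por* above *Cyb5r3* in 2 of 4 mice and *Cyb5r3* above *Nqo1* in 3 of 4. *Nqo1* was above *Xdh* in all 4 sham mice, and *Xdh* above *Sult1a1* in 3 of 4. In the AAN mice *Cyb5r3* was above *Por* in 6 of 6 mice, while *Por* exceeded *Nqo1* in 3 of 6 and *Nqo1* exceeded *Xdh* in 3 of 6, so *Nqo1* no longer stood above *Xdh* in every mouse. *Sult1a1* was above *Cyp1a1* in every mouse of both groups.

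As deposited, the summed level of the 4 nitroreductases was 117 ± 30.7 FPKM (SD, n = 4) in sham and 107 ± 20.1 FPKM (SD, n = 6) in AAN. This sum depends on the scaling of the libraries and was not computed under the others. After the median of ratios the log2 fold changes were -1.65 for *Nqo1*, -1.85 for *Por*, -0.32 for *Cyb5r3* and 1.56 for *Xdh*. The makeup of the sum, which does not depend on a scale factor per library, differed. *Por* held 34.5% ± 5.05 (SD, n = 4) of the sum in sham and 18% ± 6.11 (SD, n = 6) in AAN, and *Nqo1* 29.7% ± 5.96 and 17.7% ± 5.23. *Xdh* went the other way, from 2.77% ± 0.378 to 15.4% ± 3.68, as did *Cyb5r3*, from 33.1% ± 2.16 to 48.9% ± 6.98. The shares of *Xdh* did not overlap, with at most 3.24% in a sham mouse and at least 10.9% in an AAN mouse. The shares of *Cyb5r3* did not overlap either, although B614 with 36.3% was close to the highest sham mouse with 35.5%. These are shares of transcript levels and not of enzyme activity.

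**Figure D3:**
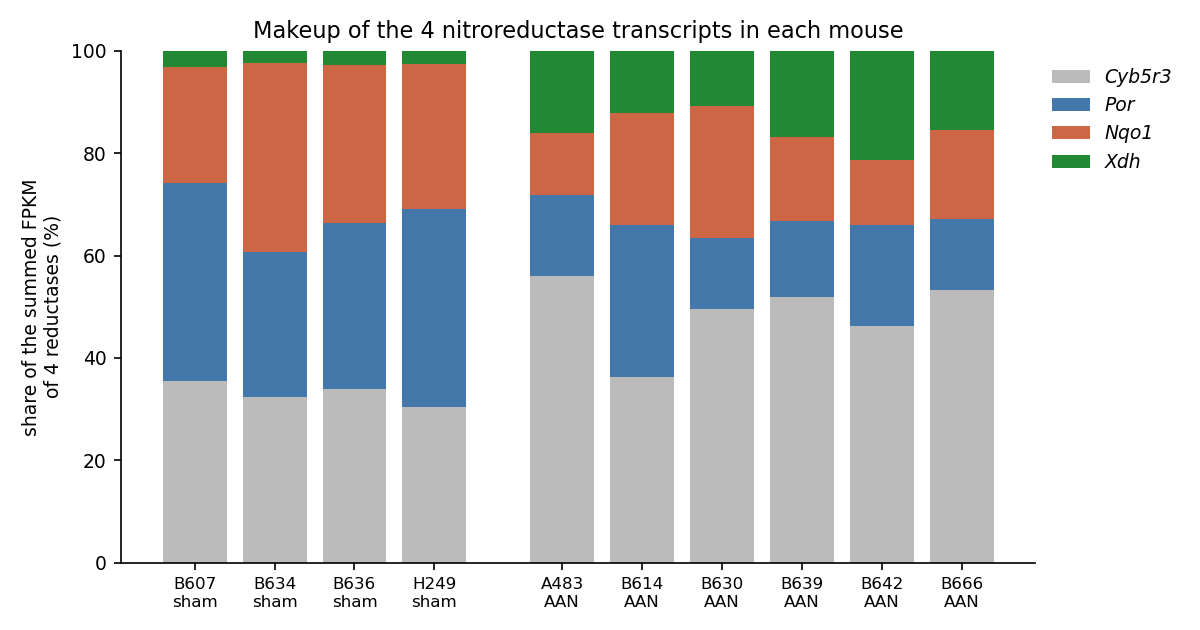
Share (y axis, %) of each nitroreductase in the summed FPKM of Nqo1, Por, Xdh and Cyb5r3, 1 bar a mouse. Xdh takes 2.35% to 3.24% in the sham mice and 10.9% to 21.3% in the AAN mice, and Cyb5r3 is the largest share in each AAN mouse.

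A difference between 2 enzymes within a mouse does not depend on a scale factor per library, apart from the effect of the pseudocount. Quantile normalization is not such a factor, and the differences were not tested under it. Between the groups, 6 such differences of log2(FPKM + 0.1) were compared by exact permutation, two-sided, of the mice over their 210 divisions. The p-values were adjusted over the 6. *Nqo1* minus *Por* was -0.23 ± 0.50 (SD, n = 4) in sham and -0.02 ± 0.57 (SD, n = 6) in AAN, a change of 0.21 (SE 0.34, exact p = 0.571) that was within the spread between mice. A difference between the changes of these 2 enzymes was not detectable with 10 mice.

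All of the other 5 differences changed, each with an adjusted exact p of 0.0114, where the smallest p that the divisions allow is 0.00476 before adjustment. *Nqo1* had 6.98 to 15.7 times the FPKM of *Xdh* in the sham mice and 0.601 to 2.35 times in the AAN mice, and the log2 difference changed by -3.19 (SE 0.38). *Nqo1* minus *Sult1a1* changed by -1.86 (SE 0.31) and *Nqo1* minus *Cyb5r3* by -1.32 (SE 0.29). *Cyb5r3* minus *Por* rose by 1.53 (SE 0.28), from a ratio of FPKM of 0.79 to 1.14 in the sham mice to 1.22 to 3.82 in the AAN mice. The closest relative of *Nqo1* is *Nqo2*, a quinone reductase that uses dihydronicotinamide riboside in place of NAD(P)H. *Nqo2* had 9.08 to 11.2 FPKM in the sham mice and 7.64 to 11.5 FPKM in the AAN mice (log2 fold change -0.06, SE 0.15, limma adjusted p = 0.721), but it passed after quantile normalization (-0.67, adjusted p = 0.00118) and with the median of ratios (-0.82, adjusted p = 0.000175). *Nqo1* minus *Nqo2* changed by -0.82 (SE 0.18). The groups did not overlap in any of these 5 differences. For *Nqo1* minus *Xdh* and *Nqo1* minus *Sult1a1* this followed from the levels of the single enzymes, which were apart in opposite directions. Those tests therefore restate the levels given above. How often such differences change among other pairs of genes was not computed. Only 4.5% of all genes had a lower log2 fold change than *Nqo1*, and 3.26% a lower one than *Por*. The changes of *Nqo1* and *Por* would thus differ from those of most other genes too.

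**Figure D4:**
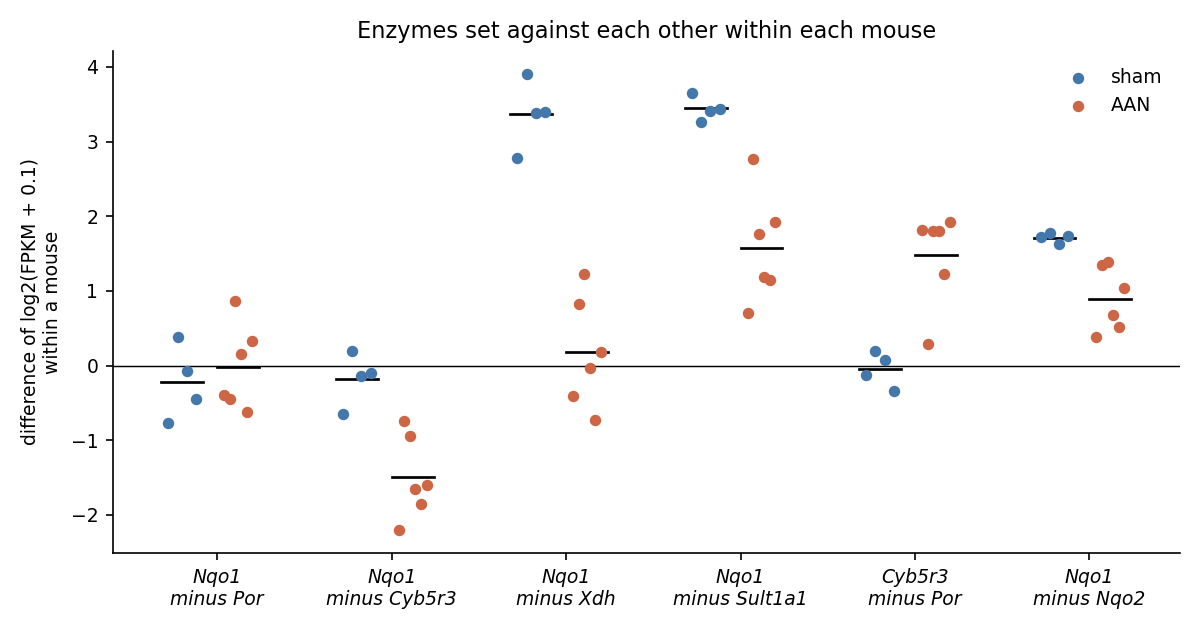
Difference of log2(FPKM + 0.1) between 2 enzymes within a mouse (y axis), 1 point a mouse, with group means as lines. The groups overlap for Nqo1 minus Por and are apart in the other 5 pairs, the widest gap being that of Nqo1 minus Xdh, with means of 3.37 in sham and 0.18 in AAN.

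Genes around these enzymes were read from lists set by role, with earlier results of these data known. Of 13 other reductases tested, 4 rose and 2 fell, against the 55.4% and 6.00% of all genes, with a median log2 fold change of 0.41 beside 0.75 for all genes. *Cyb5a*, the cytochrome b5 that takes electrons from CYB5R3 and POR, fell from 148 to 215 FPKM in the sham mice to 49.3 to 70.1 FPKM (log2 fold change -1.52, SE 0.17, limma adjusted p = 1.4e-05). *Akr1a1*, an aldehyde reductase, fell by 0.91 on the log2 scale (adjusted p = 0.00797). *Aox1*, the aldehyde oxidase related to xanthine oxidoreductase, rose by 1.49 from a very low level (0.0191 to 0.0509 FPKM in sham), but it was 0.16 with no call after quantile normalization (adjusted p = 0.679). *Cyb5r1*, a relative of *Cyb5r3*, rose by 1.17, but it did not pass after the median of ratios (0.45, adjusted p = 0.0906) or quantile normalization (0.16, adjusted p = 0.531). Both falls held under the median of ratios and quantile normalization, but the list then had 1 gene higher under each, with 6 and 5 lower.

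Of 12 listed genes that take electrons from POR, 7 fell and 1 rose, where 6.00% of all genes fell and 55.4% rose. The list does not hold every such gene: the cytochromes *Cyp1a1*, which fell, and *Cyp1b1*, which rose by 3.45, are given elsewhere. The median log2 fold change of the list was -0.92, and the median was also under 0 after the median of ratios (-1.68) and quantile normalization (-1.09). *Cyp4b1*, a cytochrome that oxidises fatty acids and furans, went from 427 to 1430 FPKM in the sham mice to 24.9 to 243 FPKM in the AAN mice (log2 fold change -3.53, SE 0.55, limma adjusted p = 0.000201). *Cyp4a14*, a fatty acid hydroxylase, changed by -3.37 but with a wide spread (SE 1.32, adjusted p = 0.0427, and 0.0727 without sham mouse B634). *Sqle*, the squalene epoxidase of cholesterol synthesis, was the 1 that rose, by 1.01 (adjusted p = 0.0269), but it did not pass after quantile normalization (0.25) or with the median of ratios (0.27), nor without sham mouse B634 (0.67, adjusted p = 0.0936). *Hmox1*, the heme oxygenase that also uses POR, had a log2 fold change of 0.34 (adjusted p = 0.243), which was -0.43 after the median of ratios (adjusted p = 0.113).

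*Cyp1a1* is the best known target of AhR. Of 6 other genes of this pathway tested, 3 rose and 0 fell, with a median log2 fold change of 0.46, where 55.4% of all genes rose and their median was 0.75. *Ahr* itself had 0.501 to 0.969 FPKM in the sham mice and 2.08 to 3.11 FPKM in the AAN mice (log2 fold change 1.91, SE 0.21, limma adjusted p = 1e-05). *Cyp1b1*, another target of the receptor that is typical of stromal cells, rose from 1.25 to 1.8 FPKM to 12.4 to 25 FPKM (log2 fold change 3.45, SE 0.22, adjusted p = 2.51e-07). *Tiparp*, a target that limits the receptor, had 0.05 (adjusted p = 0.827). *Ahr* and *Cyp1b1* rose under every scaling, and after the median of ratios these were the 2 genes that rose, while 2 others, *Tiparp* and *Ugt1a6a*, fell, as they also did after quantile normalization. All 8 fibroblast markers rose, from sums of 16.2 to 22.3 FPKM in the sham mice to 116 to 264 FPKM, and their part in the rise of *Cyp1b1* was not tested.

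The NRF2 genes moved in both directions. Of 15 tested, 6 rose and 2 fell, with a median log2 fold change of 0.34 (all genes 55.4%, 6.00% and 0.75), and 7, *Hmox1* and *Txnrd1* among them, did not pass, although *Txnrd1* was -0.92 after the median of ratios (adjusted p = 0.00286). *Ephx1*, the microsomal epoxide hydrolase, rose most, from 12.6 to 14.2 FPKM in the sham mice to 62.9 to 95.9 FPKM (log2 fold change 2.57, SE 0.15, limma adjusted p = 1.84e-07). *Gsta3*, a glutathione transferase, fell by 1.45 on the log2 scale (adjusted p = 0.0264), and *Gclm*, the modifier subunit of glutathione synthesis, fell by 0.75 (adjusted p = 0.00651). *Nfe2l2*, which encodes NRF2, rose by 1.06 (adjusted p = 0.0081), but by 0.30 with no call after the median of ratios, where 2 of the 14 genes tested were higher and 7 lower.

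For sulfonation and acetylation, 6 of 12 genes rose and 2 fell, with a median log2 fold change of 0.27, beside 55.4% risen, 6.00% fallen and 0.75 over all genes. *Sult1d1*, a sulfotransferase of phenols and amines, went from 110 to 224 FPKM in the sham mice to 68.3 to 91.0 FPKM (log2 fold change -1.12, SE 0.20, limma adjusted p = 0.000513). *Papss2*, which makes the sulfate donor PAPS, fell by 1.34 on the log2 scale (adjusted p = 0.00146). *Sult4a1*, a brain-type sulfotransferase, and *Sult2b1*, which acts on cholesterol, rose by 3.80 and 2.99 from at most 0.174 FPKM in a sham mouse. These 4 kept their direction and passed under every scaling, while the list had 2 higher and 6 lower after the median of ratios. The summed FPKM of the list was 292 to 405 in the sham mice and 180 to 250 in the AAN mice.

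For the purine genes around *Xdh*, 5 of 9 rose and 1 fell, where 55.4% of all genes rose, with a median log2 fold change of 0.70, close to that of all genes. *Gda*, the guanine deaminase that makes xanthine, the substrate of *Xdh*, rose from 0.607 to 1.43 FPKM in the sham mice to 4.13 to 11 FPKM (log2 fold change 2.85, SE 0.32, limma adjusted p = 1.42e-05). *Ada*, the adenosine deaminase, rose by 1.58 (adjusted p = 0.00148), but by 0.43 with no call after quantile normalization (adjusted p = 0.223). *Adk*, the adenosine kinase that competes with it for adenosine, fell by 1.01 on the log2 scale (adjusted p = 0.00342). After the median of ratios *Gda* was higher by 2.14, and 3 genes were higher and 2 lower.

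The transporters of organic anions had the lowest median of these lists, -3.31, with 5 of 7 fallen and 1 risen. Over all genes, 6.00% fell and 55.4% rose. *Slc22a6* (OAT1), which takes up aristolochic acid at the basolateral membrane, went from 230 to 409 FPKM in the sham mice to 7.15 to 117 FPKM in the AAN mice (log2 fold change -4.28, SE 0.67, limma adjusted p = 0.000186), and the highest AAN mouse had less than every sham mouse. *Slc22a8* (OAT3) fell by 3.35 on the log2 scale (adjusted p = 0.000239). *Abcc4*, an efflux pump of the apical membrane, rose by 1.46 (adjusted p = 0.00172), and by 0.70 after the median of ratios (adjusted p = 0.0395). *Slc22a6* is also one of the proximal tubule markers above.

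**Figure D5:**
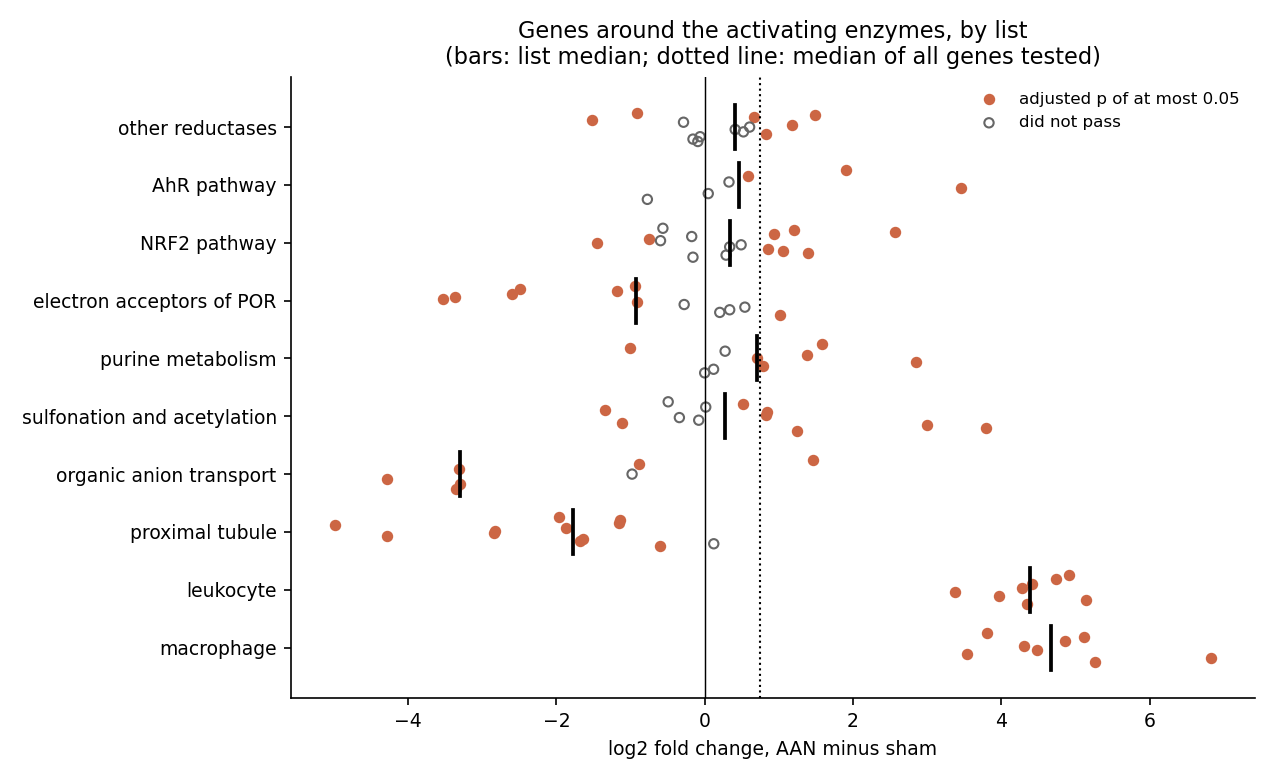
Log2 fold change (x axis, AAN minus sham) of the genes in 10 lists, 1 point a gene, filled where the adjusted p was at most 0.05, with list medians as bars and the median of all genes (0.75) as a dotted line. The organic anion transporters (-3.31), the proximal tubule markers (-1.78) and the electron acceptors of POR (-0.92) have medians under 0, and the leukocyte (4.38) and macrophage (4.67) markers lie far to the right.

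Other cell types were checked in the same way. Of 8 endothelial markers 4 rose as deposited, with a median of 0.38 (all genes 55.4% and 0.75). Their sums were 68.5 to 109 FPKM in sham and 125 to 147 FPKM in AAN. After the median of ratios the 4 that had risen did not pass, and the other 4 fell. Of 8 markers of the distal tubule and collecting duct 1 fell as deposited, against 6.00% of all genes, with a median of -0.42. The count was 3 without B614, 2 after quantile normalization, 4 with the median of ratios and 0 at the same total without mitochondrial genes. In this list B614 had the highest sum of all mice, 2617 FPKM, where the other AAN mice had 344 to 734 FPKM. All 8 markers of injured tubules rose, with a median of 4.78. Of 5 hepatocyte markers tested 2 fell and none rose as deposited, against 6.00% and 55.4% of all genes. Without B614, 2 fell and 1 rose. The 2 that fell were *Alb*, at 1.5 to 3.88 FPKM in the sham mice, and *Ttr*, at 64.8 to 204 FPKM. The part of these markers in the changes of the enzymes was not tested.

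The genes whose pattern over the 10 mice was most like that of each enzyme were found by the root mean square difference of log2 values centred on their means, among the 12240 genes whose mean was 1 FPKM or more. *Nqo1* was followed most closely by *Cyp2c23*, a cytochrome that epoxidises arachidonic acid (0.19), then *Slc19a3*, a thiamine transporter (0.193), and *Kyat3*, a kynurenine aminotransferase (0.203). *Por* was matched by *Suclg1* of the citric acid cycle (0.13) and *Cubn*, the endocytic receptor of the proximal tubule (0.131). Next to *Xdh* stood *Tgfbr2*, the TGF-β receptor (0.176), the granzyme inhibitor *Serpinb9* (0.179), and *Parp9* (0.196), an interferon-induced gene. *Cyb5r3* was nearest to *Nolc1* (0.0719), *Scamp3* (0.0929) and *Lyrm2* (0.0996), and *Sult1a1* to *Asb6* (0.11), *Enoph1* (0.115) and *Nsmce2* (0.118). These are descriptions over the mice from which the changes above were read.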

How the data were processed

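Members and gene lists were chosen with earlier results of these data known. The authors filtered the reads (rRNA, adapters, short or low quality), aligned them to GRCm38.p4 with Hisat2 2.0.4 and deposited FPKM computed with Stringtie 1.3.0 for 21792 genes per mouse. The annotation release is not given in the sources used here. The authors used edgeR, which needs counts. FPKM are not counts, so limma 3.58.1 (R 4.3.3, lmFit, then eBayes with trend and robust) was run on log2(FPKM + 0.1) for 17129 genes averaging 0.1 FPKM or more, with Benjamini-Hochberg adjustment over all of them. Fold changes are on this scale and understate those of low genes. Each sample is 1 mouse, so p-values measure the spread between mice.

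Symbols and positions came from GENCODE mouse release 21, which held 21650 of the 21792 IDs, and promoters from RefSeq. Depth was recovered from the steps between low FPKM values in genes with 1 transcript, of which 94.5% to 96.8% were whole fragments within 0.05. Stringtie shares fragments between transcripts in other genes, so no counts were recovered for them.

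Within-mouse differences were tested with an exact permutation test (Python 3.11.15, scipy 1.17.1, numpy 2.4.6, pandas 2.3.3; figures with matplotlib 3.10.9). The genes named are the members and up to 4 genes a list (the largest rises and falls, else the most abundant). They include the 3 genes most alike to each member averaging 1 FPKM or more. Named besides were *Nqo2*, *Hmox1*, *Txnrd1*, *Tiparp*, *Ugt1a6a*, *Nfe2l2*, *Slc34a1*, *Kap*, *Alb*, *Ttr* and *Sgf29*. Of the genes this rule names, 2 are not reported here. On simulated data, 71.6% of 176 changed genes were recovered with 4 false calls among 15207 genes tested. The simulation changed few genes, equally in both directions, with no shift between libraries. Its changes were larger than those of every listed enzyme but *Xdh*. These rates therefore do not carry over to the calls above. The alternatives were pseudocounts of 1 and 0.01, other filters, 3 other scalings, limma without trend and robust, each mouse left out, and the mice with B tags alone.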

Additional observations from a re-analysis of the deposited data

Results flagged for a closer look

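The values of each mouse were set against the rest of its own group with Dixon's test, for the levels of the 6 enzymes, their 6 differences within a mouse, the shares of the 4 nitroreductases and the mean log2 level of 4 marker lists. Of these 40 groups of values 4 held a mouse that stood apart, where chance alone would give 2. AAN mouse B614 stood apart in 3 of them. Its mean log2 level was 7.09 over the proximal tubule markers, where the other AAN mice had 5.36 to 5.70, and 6.80 over the distal tubule and collecting duct markers, where they had 4.65 to 5.35. Its share of *Por* among the nitroreductases was 29.7%, where theirs was 13.9% to 19.7%. Sham mouse B634 had a mean log2 level of 0.339 over the leukocyte markers, below the 1.14 to 1.21 of the other sham mice. No mouse stood apart in the levels of the 6 enzymes or in their differences. Single genes of the lists were not examined in this way.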

How the results depend on the processing

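The count of genes higher, 6126, became 2909 with a pseudocount of 1, 4025 with a filter of 1 FPKM, 9482 by the adjusted p alone, 2232 after quantile normalization and 3193 with the median of ratios. That of genes lower, 588, became 1027, 2157 and 1810 under the last 3. *Nqo1* passed the 2-fold limit with the median of ratios (-1.65) and quantile normalization (-1.25), and ranged from -1.03 to -0.78 with each mouse left out. *Por* did not pass in the mice with B tags alone (-0.93), and ranged from -1.33 to -0.89 with each mouse left out. *Cyb5r3* reversed after the median of ratios (-0.32), *Cyp1a1* fell under 2-fold with a pseudocount of 1 (-0.52), and *Sult1a1* ranged from 0.91 to 1.07 with each mouse left out. *Xdh* kept its direction and its side of the limits under all 19 alternatives. So did the 6 within-mouse differences under all 13, none of which was another scaling. The cause of these shifts was not tested, apart from the pseudocount, which by its construction shrinks the changes of low genes. *Cyp1a1*, with a mean under 1 FPKM, has no value with the filter of 1 FPKM. No paired analysis was possible because no tag of a sham mouse recurs in AAN. Depth limits *Cyp1a1*, with 6 to 50 fragments a mouse.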
